A study of Mus musculus with 21 samples.

Results

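CD45+Ter119+CD71+ spleen cells from tumor-bearing mice were set against cells of the same sort from mice with anemia, across all genes. These are 6 of the 21 mouse libraries of the series, 3 from tumor-bearing mice and 3 from mice with anemia, chosen by their labels alone. All mice were C57BL/6, and RNA was sequenced with a TruSeq kit. The sort took cells carrying Ter119, an antigen of the red cell lineage, CD71, the transferrin receptor, and CD45, the leukocyte common antigen encoded by Ptprc. The sources used here do not give the tumor, how the anemia arose, the age of the mice or whether the libraries of a group came from separate mice. What the p-values weigh is therefore variation among these libraries, and it may be technical. The comparison asks how CD45+ cells in the tumor state differ from the same gate in another state in which the spleen makes red cells.

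The mouse spleen takes up red cell production when demand rises. In blood loss or haemolysis, erythropoietin drives the expansion of CD71+ precursors there, which lose CD45 as they mature. Large tumors also drive blood formation into the spleen, both of erythroid precursors and of granulocytes. Neutrophils make their granule proteins in a fixed order, with primary granule proteases and myeloperoxidase in promyelocytes, then lactoferrin and other secondary granule proteins, then gelatinase. Their cytosol holds large amounts of the calgranulins S100A8 and S100A9.

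Each level is a deposited log2 value with the logarithm undone. Its scale is not named in the sources used here, so levels are compared between libraries for 1 gene and not between genes. Sums of the values ran from 227961 to 270435 in the 6 libraries, and 13442 to 13662 of 14273 listed genes had a value. Because the depth is unknown, values carry no counting interval. Values given in a row are those of replicates 1, 2 and 3. Differences are on the log2(value + 1) scale, tumor minus anemia, which understates the change of low genes, and were tested with limma.

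The erythroid label was checked against the adult globins, which made up 5.72, 6.52 and 4.96% of the summed values in the tumor libraries and 14.9, 9.94 and 1.29% in the anemia libraries. The CD45- cells of the same sort held 33.6% ± 12.7 in tumor and 29.1% ± 15.8 in anemia, and MDSC, the CD11b+Gr1+ myeloid-derived suppressor cells of tumor-bearing mice, 0.237% ± 0.233 (SD, n = 3). The mean globin share of both CD45+ groups lay between those of MDSC and of CD45- cells. It did not separate every library, since anemia replicate 1 lay above the lowest anemia CD45- library (11.2%) and anemia replicate 3 was closer to the highest MDSC library (0.486%) than to any CD45- library. Neutrophil calgranulin and mature neutrophil genes made up 8.63, 9.22 and 3.81% of the summed values in the tumor libraries and 0.319, 0.220 and 1.82% in the anemia libraries. Both groups, and the tumor group above all, thus also held transcripts of neutrophils. B cell genes made up 0.242% ± 0.212 in tumor and 0.727% ± 0.0516 in anemia (SD, n = 3). The cells are therefore called here by their gate and not as an erythroid cell type. In RNA from many cells, more cells of a type and more transcript per cell cannot be told apart.

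Of the antigens of the sort, Tfrc, which encodes CD71, was 70.2, 161 and 89.4 in the tumor libraries and 115, 149.98 and 62.4 in the anemia libraries. The ranges overlapped and the difference did not pass the test (log2 fold change -0.03, limma adjusted p = 0.99). Ptprc was 129.8, 177 and 386 in the tumor libraries and 322, 372 and 477 in the anemia libraries. The Ptprc ranges overlapped and the difference did not pass (log2 fold change -0.89, limma adjusted p = 0.18), but it passed without tumor replicate 3 (adjusted p = 0.017).

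Tumor replicate 3 stood apart from the other tumor libraries. On the first principal component of the 6 libraries, with 55.0% of the variance, tumor replicates 1 and 2 scored 64.9 and 56.5, tumor replicate 3 -8.99 and the anemia libraries -38.2, -40.3 and -33.9. Its correlation across genes was 0.915 and 0.919 with tumor replicates 1 and 2. It was higher with every anemia library, at 0.934, 0.932 and 0.957 with anemia replicates 1, 2 and 3. The second component, with 22.3% of the variance, set the replicates 3 of both groups, at -32.7 and -41.1, below the others. Both replicates 3 also had the lowest haemoglobin share (4.96% in tumor and 1.29% in anemia) and histone share (0.619% and 0.275%) of their group. This was not particular to these groups, since replicate 3 was lowest in both shares in each of the 7 groups of the series. In CD45- cells its haemoglobin share was 20.8% in tumor and 11.2% in anemia. Replicates 1 and 2 were also the most closely correlated pair in every group. Whether the replicate number marks a batch is not stated in the labels.

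**Figure D1:**
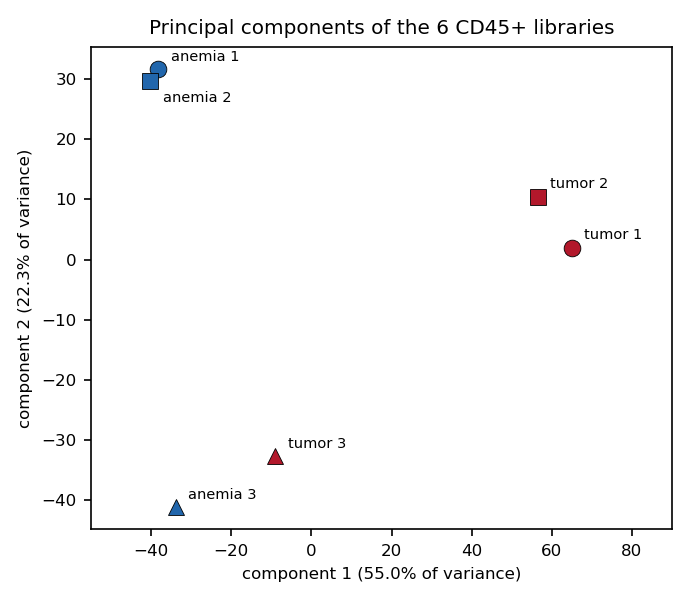
Scores of the 6 CD45+ libraries on the first component (x axis, 55.0% of the variance) and the second (y axis, 22.3%), with tumor in red, anemia in blue and a symbol for each replicate number. Tumor replicates 1 and 2 lie to the right, and tumor replicate 3 lies between them and the anemia libraries.

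Most tested genes of the neutrophil granule lists were higher in tumor CD45+ cells, 6 of 6 of the primary and 18 of 20 of the secondary and tertiary list. Higher in anemia CD45+ cells were 18 of 24 B cell, 22 of 31 T cell and 11 of 11 MHC class II genes, counts that fell to 0, 0 and 0 in a fit of the 6 libraries alone and to 3, 14 and 1 without tumor replicate 1. No adult globin or red cell membrane gene passed. Of 11195 genes tested, 1201 passed (10.7%), 651 of them higher in tumor (5.82% of the tested genes) and 550 higher in anemia (4.91%). A log2 difference of at least 1 was seen in 558 and 409 of these. The median difference over all tested genes was -0.03. All 3 tumor libraries lay above all 3 anemia libraries in 13.2% of the tested genes and below in 11.9%.

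The counts rested on the spread taken from all 18 Ter119+CD71+ libraries. Genes near 0 in CD45- cells vary little there on the log2(value + 1) scale. For them the SE and p-values given can understate the spread among CD45+ libraries. The limma adjusted p of the B cell gene Cr2 was 0.011 with 18 libraries and 0.16 with the 6, and that of Itgam 0.002 and 0.12. The 6 libraries alone also estimate a spread less well. A fit of the 6 libraries alone tested 10414 genes and called 70 higher in tumor (0.672%) and 5 higher in anemia (0.048%), with 2155 at an unadjusted p under 0.05, and a fit of the 9 CD45+ libraries called 331 and 74. Of the genes called with 18 libraries, the 6-library fit called 69 and 5. Without tumor replicate 3 the counts were 1024 (9.21%) and 1203 (10.8%), and 619 and 544 of the genes first called were among them. Among the genes called without it, tumor replicate 3 lay nearer to the anemia mean than to the mean of tumor replicates 1 and 2 in 645 of 1024 and 1037 of 1203. Without tumor replicate 1 they were 382 and 164, without tumor replicate 2 405 and 197, without anemia replicate 1 435 and 298, and without anemia replicate 2 416 and 255. Without both replicates 3 they were 949 and 1017. Values rescaled without the haemoglobin genes gave 553 and 787, so that the larger count was then on the anemia side, with the median over all genes at -0.18.

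**Figure D2:**
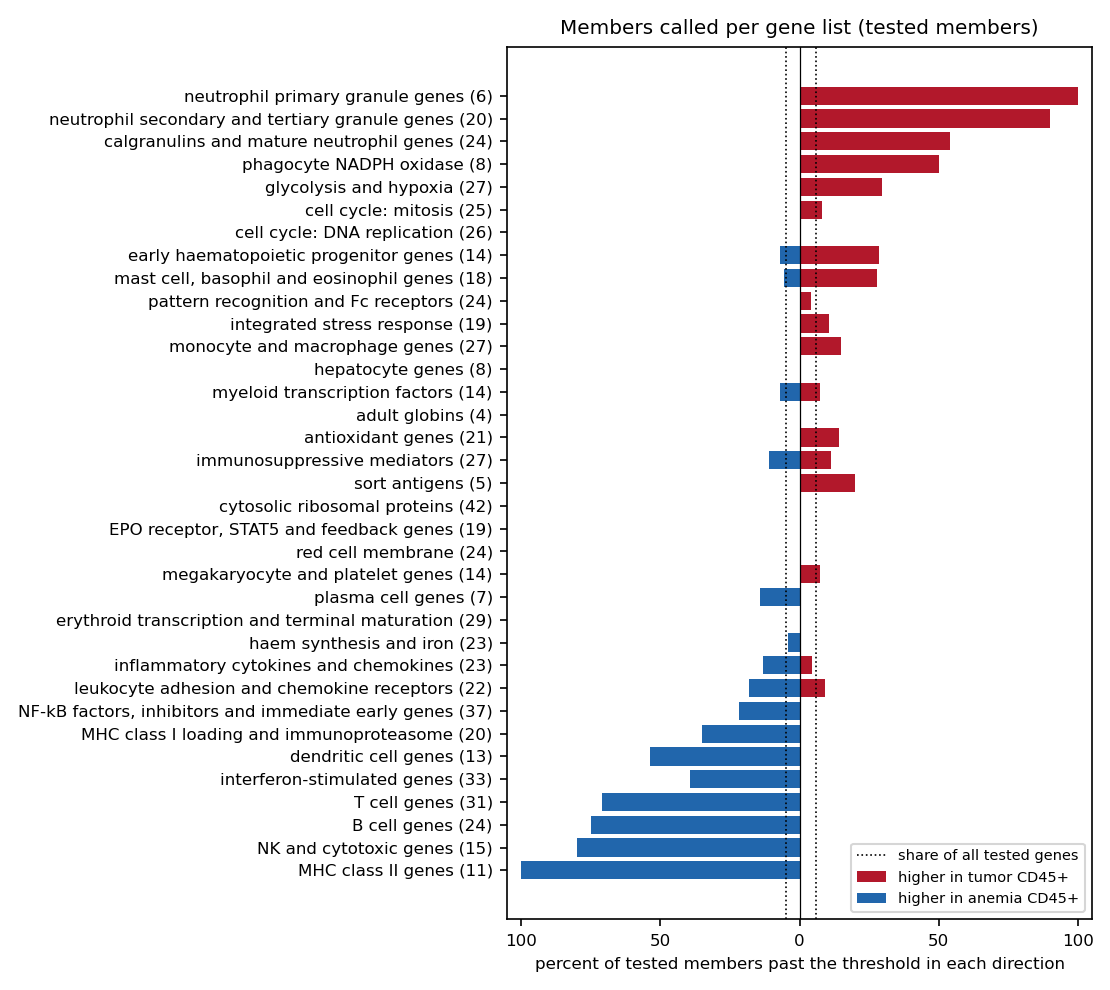
Percent of the tested members of each gene list that passed the test (x axis), to the right where higher in tumor (red) and to the left where higher in anemia (blue), with lists ordered by their median difference. Dotted lines mark the shares over all tested genes, 5.82% and 4.91%, which the neutrophil granule lists exceed on the right and the lymphocyte, NK and MHC class II lists on the left.

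Genes of the primary (azurophil) granules, made in promyelocytes, had the highest median difference of the lists. Of 6 tested members, 6 were higher in tumor, against 5.82% of all genes, with a median difference of 5.48 against -0.03 over all genes. Mpo, myeloperoxidase, was 965, 719.9 and 229 in the tumor libraries and 12.9, 12.01 and 5.28 in the anemia libraries. Every tumor library lay above every anemia library, with tumor replicate 3 the lowest of its group. The difference was 5.70 ± 0.64 log2 units (SE, limma adjusted p = 2.6e-05). Ctsg, the protease cathepsin G, was 621, 289 and 54.4 in the tumor libraries and 3.36, 3.27 and 1.75 in the anemia libraries. Elane, neutrophil elastase, was 435, 329 and 81.3 in the tumor libraries and 6.65, 5.34 and 2.79 in the anemia libraries. For both the groups did not overlap and tumor replicate 3 was again lowest (5.86 and 5.32 log2 units). Prtn3, proteinase 3, was 455, 426 and 79.5 in the tumor libraries and 6.37, 5.26 and 3.59 in the anemia libraries, a difference of 5.39 ± 0.66 log2 units (SE, limma adjusted p = 5.5e-05). Ms4a3, a membrane protein of granulocyte progenitors, was 196, 154 and 31.2 in the tumor libraries and 1.24, 0.642 and 1.56 in the anemia libraries, also without overlap (5.56 ± 0.49 log2 units, SE, limma adjusted p = 2.2e-06). The sixth member, Prg2, encodes the major basic protein of eosinophils, and at 73.3, 96.5 and 14.9 in the tumor libraries and 16.7, 15.4 and 2.12 in the anemia libraries its groups overlapped (log2 fold change 2.33, limma adjusted p = 0.025). The primary granule genes together made up 1.02, 0.745 and 0.204% of the summed values in the tumor libraries and 0.0193, 0.0177 and 0.00749% in the anemia libraries, and 0.629% ± 0.244 (SD, n = 3) in MDSC. The call of Prg2 was lost without tumor replicate 1 or 2 or anemia replicate 3 (limma adjusted p up to 0.16).

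Proximal promoter sequences are shown for 5 of these and the later granulocyte genes, chosen because they hold the same short word. RefSeq promoters of the GRCm38.p6 assembly were searched on both strands, over 250 bases before each start, for GAGGAAGT, a core of the sites bound by PU.1, the myeloid and B cell factor encoded by Spi1. This word was chosen with the results known. It was found in 2.44% of 32851 promoters of all genes, in 9 of 32 promoters (28.1%) of the neutrophil genes higher in tumor (31 of 37 genes matched), in 2 of 18 (11.1%) of the B cell genes higher in anemia and in 1 of 40 (2.5%) of the T and NK cell genes higher in anemia. Promoters of 1 gene can overlap, and the 9 promoters belong to 8 genes, so these shares are a description. The C/EBP word TTNCGNAA was in 2.04% of all promoters and the palindromic EBF consensus in 0.779%. Neither was found in the 32 promoters of the neutrophil genes, a set too small to tell none from such shares. The EBF consensus was in 1 of 18 promoters (5.56%) of the B cell genes higher in anemia. Stretches around the word follow, read 5′ to 3′ in the direction of the gene, with the word, or its reverse complement ACTTCCTC, in capitals.
Prtn3, chr10:79879492-79879591, plus strand: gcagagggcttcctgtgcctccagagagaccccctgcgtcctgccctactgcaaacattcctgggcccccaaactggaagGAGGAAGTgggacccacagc
Elane, chr10:79886147-79886246, plus strand: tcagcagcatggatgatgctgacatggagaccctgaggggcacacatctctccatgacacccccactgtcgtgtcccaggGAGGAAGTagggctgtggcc
Mpo, chr11:87793534-87793579, plus strand: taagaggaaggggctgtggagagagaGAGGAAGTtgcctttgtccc
Olfm4, chr14:80000141-80000240, plus strand: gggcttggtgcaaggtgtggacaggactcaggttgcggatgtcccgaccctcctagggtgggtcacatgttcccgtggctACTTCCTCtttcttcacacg
S100a8, chr3:90668821-90668918, plus strand: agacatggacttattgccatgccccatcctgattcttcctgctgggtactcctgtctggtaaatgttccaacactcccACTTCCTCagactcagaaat
The word lay 95 to 88 bases before the start of Prtn3, 85 to 78 before Elane, 224 to 217 before Mpo, 81 to 74 before Olfm4 and 172 to 165 before S100a8. A match does not show binding.

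Secondary and tertiary granule genes, made later in maturation, followed the same direction. The list also holds neutrophil genes beyond the granule proteins, such as Ltb4r1 and the called genes Padi4, Serpinb1a and Anxa1. Of 20 tested, 18 were higher in tumor, against 5.82% of all genes, and 0 higher in anemia (median 3.89). The others were Ltb4r1, a leukotriene receptor (log2 fold change 0.08, limma adjusted p = 0.93), and Lyz2, lysozyme (log2 fold change 0.73, limma adjusted p = 0.38). Ltf, lactoferrin, was 574, 846 and 641 in the tumor libraries and 60.1, 31.1 and 62.1 in the anemia libraries, with no overlap and tumor replicate 3 inside its group (3.77 ± 0.32 log2 units, SE, limma adjusted p = 2.0e-06). Olfm4, a glycoprotein of the secondary granules, was 92.001, 58.1 and 32.4 in the tumor libraries and 0.907, 0.631 and 3.05 in the anemia libraries (4.61 ± 0.37 log2 units, SE, limma adjusted p = 9.5e-07). Cd177, a surface protein of neutrophils, was 400.3, 420.1 and 134 in the tumor libraries and 9.55, 5.05 and 15.1 in the anemia libraries (4.81 ± 0.44 log2 units, SE, limma adjusted p = 2.9e-06). For both, every tumor library lay above every anemia library. Camp, the precursor of an antimicrobial peptide, was 1127, 1049 and 501 in the tumor libraries and 55.3, 31.9 and 35.3 in the anemia libraries (log2 fold change 4.37, limma adjusted p = 1.3e-05). Chil3, a chitinase-like secreted protein, was 1316, 1042 and 694 in the tumor libraries and 33.1, 18.9 and 105 in the anemia libraries (log2 fold change 4.56, limma adjusted p = 4.4e-05). Fcnb, a ficolin, Orm1, an acute phase protein, and Itgb2l, an integrin chain, differed by 4.01, 3.36 and 4.05 log2 units. The gelatinase Mmp9 was 91.3, 162 and 71.6 in the tumor libraries and 12.5, 7.44 and 38.4 in the anemia libraries (log2 fold change 2.64, limma adjusted p = 4.7e-04). Without tumor replicate 3 18 were called, and in the 6-library fit 11. It made up 3.50, 3.53 and 1.89% of the summed values in the tumor libraries and 0.196, 0.128 and 0.380% in the anemia libraries.

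Genes of more mature neutrophils depended on anemia replicate 3. Of 24 tested, 13 were higher in tumor, against 5.82% of all genes, 0 were higher in anemia and the median was 1.70. S100a8 was 9329, 10058 and 3412 in the tumor libraries and 247, 129.7 and 913 in the anemia libraries. S100a9 was 12033, 12469 and 4756 in the tumor libraries and 287, 167 and 1446 in the anemia libraries. Anemia replicate 3 was the highest of its group for both, yet below every tumor library (log2 fold change 4.47, limma adjusted p = 6.4e-04 and log2 fold change 4.44, limma adjusted p = 0.0014). The stefin genes, inhibitors of cysteine proteases, have near-identical copies that a count may split. Stfa1 was 135, 99.7 and 7.35 in the tumor libraries and 0, 0 and 1.89 in the anemia libraries, so that anemia replicates 1 and 2 were listed at 0 (log2 fold change 5.09, limma adjusted p = 3.4e-04). Csf3r, the receptor for G-CSF, was 31.2, 63.98 and 41.5 in the tumor libraries and 11.6, 9.66 and 126 in the anemia libraries. Clec4d, a lectin of mature neutrophils and monocytes, was 16.7, 26.7 and 15.3 in the tumor libraries and 4.27, 3.50 and 98.7 in the anemia libraries. In both anemia replicate 3 was the highest of the 6 and neither passed (log2 fold change 0.80, limma adjusted p = 0.51 and log2 fold change 0.59, limma adjusted p = 0.72). Without anemia replicate 3, 24 of the 24 were higher in tumor, and in the 6-library fit 0 were. Cxcr2, the chemokine receptor of mature neutrophils, was 23.7, 71.1 and 34.9 in the tumor libraries and 3.77, 2.21 and 45.95 in the anemia libraries (log2 fold change 2.16, limma adjusted p = 0.046). Ly6g, a neutrophil surface antigen bound by the Gr1 antibody, was 1.05, 10.9 and 21.7 in the tumor libraries and 0.793, 1.18 and 5.76 in the anemia libraries and did not pass (log2 fold change 1.46, limma adjusted p = 0.15). Itgam, which encodes CD11b, was 90.5, 130.3 and 67.6 in the tumor libraries and 11.996, 10.4 and 48.01 in the anemia libraries, with every tumor library above every anemia library (2.27 ± 0.42 log2 units, SE, limma adjusted p = 0.002). The call of Cxcr2 was lost without tumor replicate 1, 2 or 3 or anemia replicate 1 or 2 (limma adjusted p up to 0.25).

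Anxa1, an annexin abundant in neutrophils, is among the called members of the secondary and tertiary granule list. It was 1423, 1295 and 388 in the tumor libraries and 25.8, 15.003 and 88.9 in the anemia libraries, without overlap (4.73 ± 0.66 log2 units, SE, limma adjusted p = 1.7e-04). The 12 genes named for the largest differences in each direction were picked as called and without overlap in these same libraries. Each of those in the tumor direction (Ctsg, Mpo, Ms4a3, Prtn3, Elane, Stfa1, Cd177, Anxa1, Stfa2, Olfm4, Chil3 and S100a8) passed when any 1 of the 6 libraries was left out of the 18-library fit. Of the 12 in the anemia direction, 6 did. In the 6-library fit Stfa1 (limma adjusted p = 0.086), Anxa1 (0.054), Stfa2 (0.13) and S100a8 (0.058) did not pass. In the anemia direction Gzma alone passed in that fit.

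**Figure D3:**
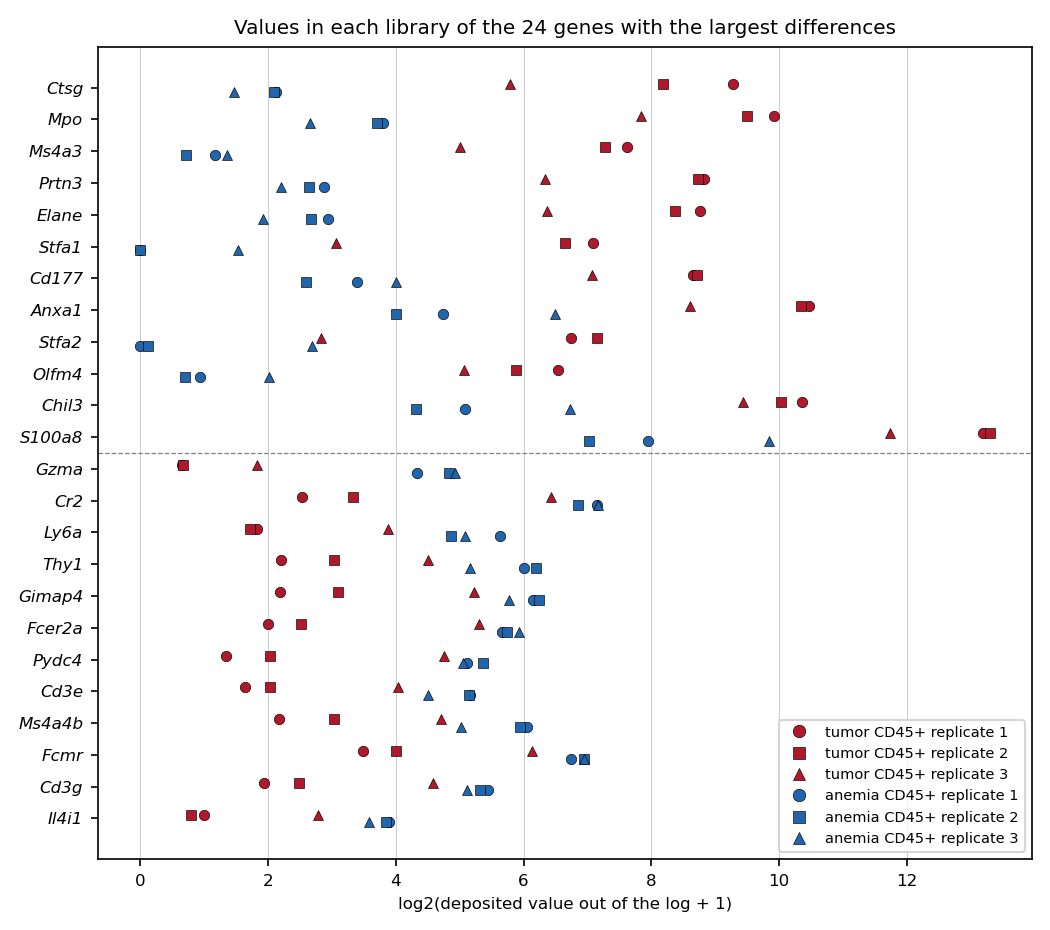
Values of the 12 genes named for the largest differences in each direction, as log2(value + 1) on the x axis, for each tumor (red) and anemia (blue) library, with a symbol per replicate number. In the upper 12 genes tumor replicate 3 (triangle) lies below tumor replicates 1 and 2, and in the lower 12 it lies above them, nearest to the anemia libraries.

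The phagocyte NADPH oxidase makes superoxide from oxygen at the granule and surface membrane. Of its 8 tested genes 4 were higher in tumor, against 5.82% of all genes, and 0 higher in anemia (median 1.08). Cybb, the catalytic chain, was 246, 235 and 178 in the tumor libraries and 53.5, 60.5 and 125 in the anemia libraries, without overlap (1.54 ± 0.31 log2 units, SE, limma adjusted p = 0.0033). The cytosolic subunits Ncf1 and Ncf4 passed with 1.47 and 1.31 log2 units. Ncf1 was 114, 156 and 76.3 in the tumor libraries and 29.8, 23.02 and 87.6 in the anemia libraries. Anemia replicate 3 lay above tumor replicate 3 for it, so that the groups overlapped. Cyba, the membrane partner of Cybb, did not pass (log2 fold change 0.91, limma adjusted p = 0.13). Without tumor replicate 1, tumor replicate 2, anemia replicate 1 or anemia replicate 2, 1 gene of the list was called, and 0 were in the 6-library fit. The calls of Ncf1 and Ncf4 were lost without tumor replicate 1 or 2 or anemia replicate 1 or 2 (limma adjusted p up to 0.21).

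Among 14 myeloid transcription factor genes tested, 1 was higher in tumor and 1 higher in anemia, against 5.82% and 4.91% of all genes. Spi1, which encodes PU.1, was 65.7, 110.5 and 42.8 in the tumor libraries and 12.3, 18.6 and 26.4 in the anemia libraries, with every tumor library above every anemia library (1.84 ± 0.33 log2 units, SE, limma adjusted p = 0.0017). Nr4a1, an orphan nuclear receptor also induced as an immediate early gene, was 27.4, 35.3 and 54.3 in the tumor libraries and 72.6, 57.8 and 123 in the anemia libraries (log2 fold change -1.08, limma adjusted p = 0.046). Cebpa, which drives granulocyte commitment, was listed at 0 in tumor replicates 1 and 2 and was 7.23 in tumor replicate 3, against 2.70, 3.30 and 3.84 in the anemia libraries (log2 fold change -1.08, limma adjusted p = 0.55). Irf8, a factor of monocytes, dendritic cells and B cells, was 12.7, 20.7 and 34.6 in the tumor libraries and 45.96, 78.03 and 34.6 in the anemia libraries and did not pass (log2 fold change -1.21, limma adjusted p = 0.069). The call of Nr4a1 was lost without tumor replicate 1 or 2 or anemia replicate 1 or 3 (limma adjusted p up to 0.25).

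Some genes of early haematopoietic progenitors were also higher in tumor, 4 of 14 tested (median 0.58), and 1 was higher in anemia, against 5.82% and 4.91% of all genes. Cd34, the surface sialomucin of progenitors, was 3.87, 3.55 and 3.90 in the tumor libraries and 1.10, 0.469 and 0.517 in the anemia libraries (1.51 ± 0.21 log2 units, SE, limma adjusted p = 2.0e-04). Erg, an ETS factor of stem and progenitor cells, was 5.50, 8.82 and 4.51 in the tumor libraries and 0.610, 0.419 and 0.455 in the anemia libraries (2.24 ± 0.25 log2 units, SE, limma adjusted p = 2.8e-05). For both the groups were apart and tumor replicate 3 was close to the other tumor libraries. Cd63, a granule and lysosome membrane protein on the same list, was 93.2, 73.3 and 21.1 in the tumor libraries and 4.35, 4.72 and 12.5 in the anemia libraries (log2 fold change 2.85, limma adjusted p = 6.3e-04). Hlf, a stem cell factor, reached the filter on low values only with the tumor CD45+ libraries. Ly6a, which encodes Sca-1, carried by stem cells and by lymphocytes, went the other way at 2.54, 2.28 and 13.7 in the tumor libraries and 48.8, 28.1 and 33.02 in the anemia libraries (-2.72 ± 0.45 log2 units, SE, limma adjusted p = 7.6e-04). Kit, the stem cell factor receptor, was 10.1, 8.35 and 6.68 in the tumor libraries and 6.70, 6.54 and 4.44 in the anemia libraries and did not pass (log2 fold change 0.45, limma adjusted p = 0.66). F13a1, a coagulation factor chain of megakaryocytes and of myeloid cells, was the one call among 14 megakaryocyte and platelet genes, at 42.5, 37.8 and 29.9 in the tumor libraries and 6.25, 3.69 and 5.53 in the anemia libraries (log2 fold change 2.63, limma adjusted p = 2.8e-05).

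Genes of glucose use were higher in tumor in part of the pathway. Of 27 tested, 8 were higher in tumor, against 5.82% of all genes, and 0 higher in anemia (median 0.93). Slc2a3, the glucose transporter GLUT3, was 45.4, 60.3 and 23.005 in the tumor libraries and 10.5, 12.3 and 15.3 in the anemia libraries (log2 fold change 1.59, limma adjusted p = 0.0084). Hk3, the hexokinase of granulocytes and monocytes, was 41.4, 54.6 and 25.7 in the tumor libraries and 4.65, 4.46 and 13.6 in the anemia libraries (2.38 ± 0.37 log2 units, SE, limma adjusted p = 5.0e-04). Gpi1, the isomerase that follows, was 433, 355 and 110.2 in the tumor libraries and 57.4, 64.2 and 64.1 in the anemia libraries (2.04 ± 0.40 log2 units, SE, limma adjusted p = 0.0032). In all of these the tumor libraries lay above the anemia libraries, with tumor replicate 3 lowest of its group. Tpi1, triosephosphate isomerase, was 122, 109 and 39.98 in the tumor libraries and 17.7, 17.1 and 19.3 in the anemia libraries (log2 fold change 2.11, limma adjusted p = 0.011). Pgam1, phosphoglycerate mutase, was 165, 121 and 12.7 in the tumor libraries and 7.96, 10.3 and 10.3 in the anemia libraries (log2 fold change 2.64, limma adjusted p = 0.016). Pkm, pyruvate kinase, was 468, 441 and 150.1 in the tumor libraries and 85.5, 94.9 and 129.7 in the anemia libraries (log2 fold change 1.62, limma adjusted p = 0.02). In these tumor replicate 3 was nearest to the anemia libraries, and for Pgam1 and Pkm it was close to the highest of them. Ldhb, a lactate dehydrogenase chain, and Egln3, an oxygen-sensing hydroxylase, passed with 1.15 and 1.52. Gapdh (log2 fold change 1.40, limma adjusted p = 0.095), Ldha (log2 fold change 0.88, limma adjusted p = 0.37) and Slc2a1, another glucose transporter (log2 fold change 0.05, limma adjusted p = 0.96), did not pass. Hif1a, which encodes the oxygen-regulated factor, was 21.002, 18.3 and 34.96 in the tumor libraries and 27.4, 28.3 and 56.3 in the anemia libraries (log2 fold change -0.55, limma adjusted p = 0.35). The list had 13 calls without tumor replicate 3, 5 without tumor replicate 1, 4 without tumor replicate 2 and 0 in the 6-library fit. The call of Slc2a3 was lost without tumor replicate 2 (limma adjusted p = 0.065). The call of Tpi1 was lost without tumor replicate 1 or 2 (limma adjusted p up to 0.076). The calls of Pgam1 and Pkm were lost without tumor replicate 1 or 2 or anemia replicate 1 or 2 (limma adjusted p up to 0.13).

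**Figure D4:**
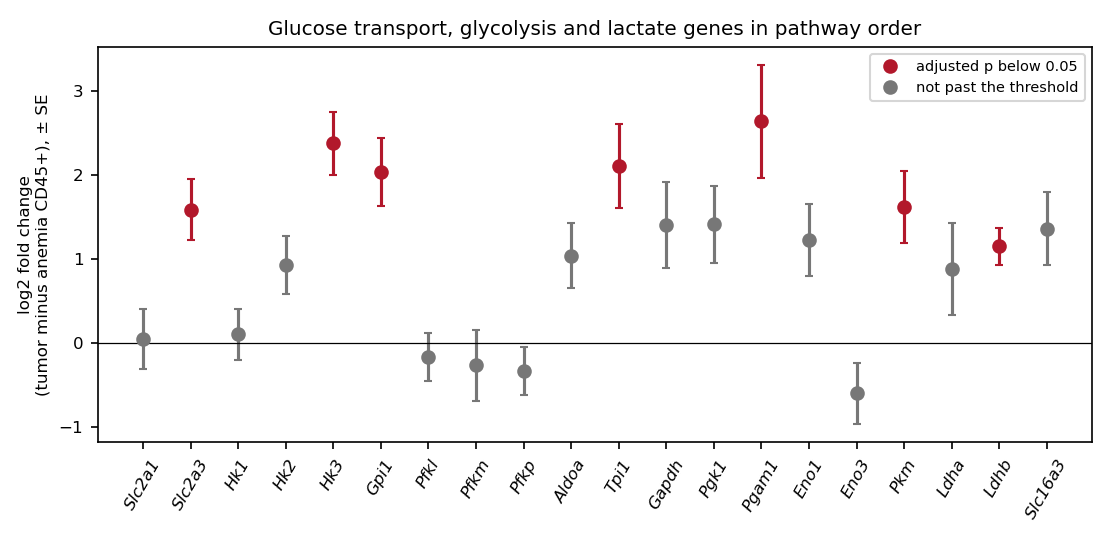
Log2 fold change (y axis, tumor minus anemia, bars ± SE of the limma fit) of 20 genes of glucose transport, glycolysis and lactate in pathway order, red where the adjusted p was below 0.05. The 7 that passed lie above 0, and the phosphofructokinase genes Pfkl, Pfkm and Pfkp lie near or below it.

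Of 21 antioxidant genes 3 were called, all higher in tumor, against 5.82% of all genes, and the list median was 0.02. The count was 2 without tumor replicate 1 and 4 without tumor replicate 3. Gsr, glutathione reductase, was 329.9, 273 and 107 in the tumor libraries and 19.7, 16.1 and 67.4 in the anemia libraries (2.89 ± 0.50 log2 units, SE, limma adjusted p = 0.0011). Prdx5, a peroxiredoxin, was 175, 185 and 83.2 in the tumor libraries and 14.4, 12.3 and 51.96 in the anemia libraries (2.66 ± 0.47 log2 units, SE, limma adjusted p = 0.0014). For both the groups were apart, with anemia replicate 3 nearest to the tumor libraries. Txn1, thioredoxin, was the remaining call (log2 fold change 1.20, limma adjusted p = 0.028). Prdx2, the peroxiredoxin abundant in red cells, was 48.003, 97.5 and 76.2 in the tumor libraries and 188, 149 and 46.02 in the anemia libraries and did not pass (log2 fold change -0.61, limma adjusted p = 0.48). The call of Txn1 was lost without tumor replicate 1 or 2 or anemia replicate 1 or 2 (limma adjusted p up to 0.14).

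Of 24 B cell genes tested, 18 were higher in anemia, against 4.91% of all genes, and 0 higher in tumor (median -1.59). Cr2, complement receptor 2 of mature B cells, was 4.77, 9.07 and 85.4 in the tumor libraries and 141, 114 and 143 in the anemia libraries. Tumor replicates 1 and 2 were far below the anemia libraries, and tumor replicate 3 lay between (-2.96 ± 0.70 log2 units, SE, limma adjusted p = 0.011). Fcer2a, the low affinity IgE receptor CD23, was 2.99, 4.74 and 38.4 in the tumor libraries and 49.5, 52.3 and 59.96 in the anemia libraries (log2 fold change -2.50, limma adjusted p = 0.0081). Fcmr, the IgM Fc receptor, was 10.2, 15.1 and 68.95 in the tumor libraries and 107, 122 and 122 in the anemia libraries (log2 fold change -2.34, limma adjusted p = 0.012). Cd79a, a signalling subunit of the antigen receptor, was 32.7, 44.6 and 172 in the tumor libraries and 248, 278 and 271 in the anemia libraries (log2 fold change -2.05, limma adjusted p = 0.012). The pattern of Cr2 held in these, with tumor replicate 3 below every anemia library but nearest to them. The lineage factors Pax5, Ebf1 and Spib differed by -1.49, -1.48 and -2.07 log2 units. Ms4a1, which encodes CD20, was 5.59, 18.8 and 49.1 in the tumor libraries and 59.6, 139 and 71.2 in the anemia libraries and did not pass (log2 fold change -2.18, limma adjusted p = 0.15). B cell genes together made up 0.106, 0.133 and 0.487% of the summed values in the tumor libraries and 0.667, 0.754 and 0.758% in the anemia libraries, and 0 tested members were listed at 0 in any of the 6. The calls of Cr2, Fcer2a, Fcmr, Cd79a, Pax5 and Ebf1 were lost without tumor replicate 1 or 2 (limma adjusted p up to 0.094).

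The count of B cell calls changed with the libraries fitted. Without tumor replicate 3 they numbered 21, with a list median of -2.19. They numbered 3 without tumor replicate 1 and also without tumor replicate 2, 13 without anemia replicate 1, 11 without anemia replicate 2 and 0 in the 6-library fit. The plasma cell gene Mzb1, a chaperone of immunoglobulin assembly, was 5.48, 8.20 and 12.5 in the tumor libraries and 57.4, 28.5 and 17.8 in the anemia libraries (log2 fold change -1.78, limma adjusted p = 0.0033). It was the 1 call among 7 plasma cell genes, against 4.91% of all genes higher in anemia. Jchain, which links polymeric immunoglobulin, was 63.2, 91.4 and 662 in the tumor libraries and 409.7, 92.6 and 45.98 in the anemia libraries, high in tumor replicate 3 and anemia replicate 1, and did not pass (log2 fold change 0.37, limma adjusted p = 0.84).

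T cell genes went the same way, with 22 of 31 higher in anemia, against 4.91% of all genes, and 0 higher in tumor (median -1.56). Cd3e, a chain of the T cell receptor complex, was 2.12, 3.06 and 15.4 in the tumor libraries and 34.8, 34.5 and 21.8 in the anemia libraries. All tumor libraries lay below all anemia libraries, with tumor replicate 3 nearest to them (-2.37 ± 0.44 log2 units, SE, limma adjusted p = 0.0021). Cd3g, another chain, was 2.83, 4.598 and 22.9 in the tumor libraries and 42.4, 38.96 and 33.7 in the anemia libraries (log2 fold change -2.29, limma adjusted p = 0.0052). Thy1 was 3.59, 7.18 and 21.7 in the tumor libraries and 63.6, 71.98 and 34.9 in the anemia libraries (-2.54 ± 0.43 log2 units, SE, limma adjusted p = 9.9e-04), and the coreceptors Cd4 and Cd8a differed by -1.85 and -1.94. Lck, the kinase bound to the coreceptors, was 6.92, 8.27 and 30.95 in the tumor libraries and 67.8, 77.6 and 39.9 in the anemia libraries (log2 fold change -2.19, limma adjusted p = 0.0042). In each of these the anemia libraries were above all tumor libraries. Foxp3, the factor of regulatory T cells, was 0.452, 0.246 and 0.758 in the tumor libraries and 1.54, 2.01 and 1.14 in the anemia libraries. It and Trat1 are among the 22, but reached the filter on low values only with the anemia CD45+ libraries. Ikzf2, also expressed in regulatory T cells, was 1.29, 1.13 and 1.65 in the tumor libraries and 4.80, 7.02 and 4.99 in the anemia libraries, with tumor replicate 3 close to its group (-1.47 ± 0.18 log2 units, SE, limma adjusted p = 4.4e-05). Gimap4, a GTPase of lymphocytes, was 3.55, 7.59 and 36.5 in the tumor libraries and 69.6, 74.4 and 53.4 in the anemia libraries (log2 fold change -2.54, limma adjusted p = 0.023). Ms4a4b, a membrane protein of T cells, was 3.51, 7.15 and 25.2 in the tumor libraries and 65.1, 60.4 and 31.4 in the anemia libraries (log2 fold change -2.37, limma adjusted p = 0.017). The list had 29 calls without tumor replicate 3, 14 without tumor replicate 1 or 2, and 0 in the 6-library fit. It made up 0.0614, 0.0818 and 0.219% of the summed values in the tumor libraries and 0.350, 0.349 and 0.298% in the anemia libraries. The call of Cd4 was lost without tumor replicate 1 or 2 or anemia replicate 2 (limma adjusted p up to 0.082). The calls of Gimap4 and Ms4a4b were lost without tumor replicate 1 or 2 or anemia replicate 1 or 2 (limma adjusted p up to 0.16).

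Of 15 NK and cytotoxic genes, 12 were higher in anemia, against 4.91% of all genes, and 0 higher in tumor (median -1.64). Gzma, granzyme A, was 0.573, 0.588 and 2.54 in the tumor libraries and 19.2, 27.5 and 29.3 in the anemia libraries. The lowest anemia library was above the highest tumor library (-3.65 ± 0.40 log2 units, SE, limma adjusted p = 2.0e-05), and Gzma passed in the 6-library fit as well (adjusted p = 0.026). Il2rb, a receptor chain for IL-2 and IL-15, was 1.42, 4.08 and 7.93 in the tumor libraries and 20.5, 22.3 and 13.3 in the anemia libraries, also without overlap (log2 fold change -2.01, limma adjusted p = 0.0028). Eomes, a T-box factor of NK and memory T cells, was 0.166, 0.346 and 1.13 in the tumor libraries and 3.24, 4.996 and 3.16 in the anemia libraries. Prf1, perforin, was 0.598, 0.206 and 1.87 in the tumor libraries and 4.66, 4.88 and 4.07 in the anemia libraries. Both are among 6 of the 12 called members that reached the filter on low values only with the anemia CD45+ libraries, and the other 6 did so without them. Nkg7, a granule protein of cytotoxic cells, was 24.4, 13.5 and 7.41 in the tumor libraries and 14.95, 23.5 and 16.2 in the anemia libraries and did not pass (log2 fold change -0.37, limma adjusted p = 0.53). The list had 14 calls without tumor replicate 3, 7 without tumor replicate 1 and 1 in the 6-library fit.

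Dendritic cell genes gave 7 calls of 13, all higher in anemia, against 4.91% of all genes (median -1.28). Xcr1, the chemokine receptor of cross-presenting dendritic cells, was 0.0749, 0.0574 and 1.08 in the tumor libraries and 3.03, 2.87 and 1.99 in the anemia libraries, and it reached the filter on low values only with the anemia CD45+ libraries. Siglech, a marker of plasmacytoid dendritic cells, was 0.152, 0.524 and 2.12 in the tumor libraries and 4.56, 3.75 and 2.09 in the anemia libraries (log2 fold change -1.30, limma adjusted p = 0.0059). Itgax, which encodes CD11c, was 2.76, 3.75 and 15.3 in the tumor libraries and 16.9, 20.5 and 27.01 in the anemia libraries (log2 fold change -1.74, limma adjusted p = 0.01). Itgax did not overlap between the groups, and for Siglech tumor replicate 3 lay just above the lowest anemia library. There were 12 calls without tumor replicate 3, 3 without tumor replicate 1, 4 without tumor replicate 2 and 0 in the 6-library fit. The call of Itgax was lost without tumor replicate 1 or 2 (limma adjusted p up to 0.085).

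All 11 tested MHC class II genes, which present antigen on B cells, dendritic cells and macrophages, were higher in anemia, against 4.91% of all genes (median -1.78). Cd74, the invariant chain, was 246, 284 and 986 in the tumor libraries and 1594, 1772 and 1634 in the anemia libraries (log2 fold change -2.02, limma adjusted p = 0.035). H2-Ab1, a class II chain, was 49.6, 70.1 and 275 in the tumor libraries and 407, 441 and 434 in the anemia libraries (log2 fold change -2.10, limma adjusted p = 0.017). Ciita, the coactivator that turns these genes on, was 6.82, 6.53 and 22.02 in the tumor libraries and 33.1, 34.3 and 28.05 in the anemia libraries (-1.56 ± 0.36 log2 units, SE, limma adjusted p = 0.0083). Each was lowest in tumor replicates 1 and 2, intermediate in tumor replicate 3 and highest in the anemia libraries, the order seen for Cr2. The count was 11 without tumor replicate 3, 1 without tumor replicate 1 or 2, 6 and 5 without anemia replicates 1 and 2, and 0 in the 6-library fit. Whether the B cell transcripts account for the class II difference was not tested. The call of Cd74 was lost without tumor replicate 1 or 2 or anemia replicate 1, 2 or 3 (limma adjusted p up to 0.20). The call of H2-Ab1 was lost without tumor replicate 1 or 2 or anemia replicate 1 or 2 (limma adjusted p up to 0.13). The call of Ciita was lost without tumor replicate 1 or 2 (limma adjusted p up to 0.065).

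Of 20 class I and antigen processing genes, 7 were higher in anemia, against 4.91% of all genes (median -0.87). H2-K1, a classical class I chain, was 153, 172 and 324 in the tumor libraries and 443, 562 and 472 in the anemia libraries (-1.26 ± 0.30 log2 units, SE, limma adjusted p = 0.011), while B2m, its light chain, was 196, 252 and 415 in the tumor libraries and 483, 662 and 589 in the anemia libraries and did not pass (log2 fold change -1.06, limma adjusted p = 0.076). Nlrc5, the class I coactivator, differed by -1.60. Several H2-Q genes passed (H2-Q4 -1.38, H2-Q6 -1.70, H2-Q7 -2.08), though their sequences are close enough that counting may have split reads among them. The count was 11 without tumor replicate 3, 2 without tumor replicate 1 or 2, 4 without anemia replicate 2 and 0 in the 6-library fit. Interferon-stimulated genes, induced by type I and II interferons, gave 13 of 33 higher in anemia, against 4.91% of all genes, and 0 higher in tumor (median -1.34). Irf7, which amplifies the type I response, was 2.91, 6.28 and 16.04 in the tumor libraries and 23.8, 35.1 and 19.9 in the anemia libraries (log2 fold change -1.76, limma adjusted p = 0.045). Oasl1, an oligoadenylate synthetase-like gene, was 0.734, 1.62 and 1.78 in the tumor libraries and 4.98, 4.80 and 8.98 in the anemia libraries (-1.59 ± 0.32 log2 units, SE, limma adjusted p = 0.0038). Isg15, an inducible ubiquitin-like protein, was 2.36, 0.514 and 28.4 in the tumor libraries and 55.2, 1.02 and 2.76 in the anemia libraries, with 1 high library in each group, and did not pass (log2 fold change -0.50, limma adjusted p = 0.92). Pydc4, a pyrin domain gene induced by interferon, was 1.52, 3.10 and 26.1 in the tumor libraries and 33.5, 40.3 and 32.02 in the anemia libraries (log2 fold change -2.46, limma adjusted p = 0.0076). The interferon count was 23 without tumor replicate 3, 1 without tumor replicate 1 or 2, 4, 2 and 8 without anemia replicates 1, 2 and 3, and 0 in the 6-library fit. The call of H2-K1 was lost without tumor replicate 1 or 2 or anemia replicate 2 (limma adjusted p up to 0.083). The calls of Nlrc5, H2-Q6 and Pydc4 were lost without tumor replicate 1 or 2 (limma adjusted p up to 0.065). The call of Irf7 was lost without tumor replicate 1 or 2 or anemia replicate 1, 2 or 3 (limma adjusted p up to 0.28).

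**Figure D5:**
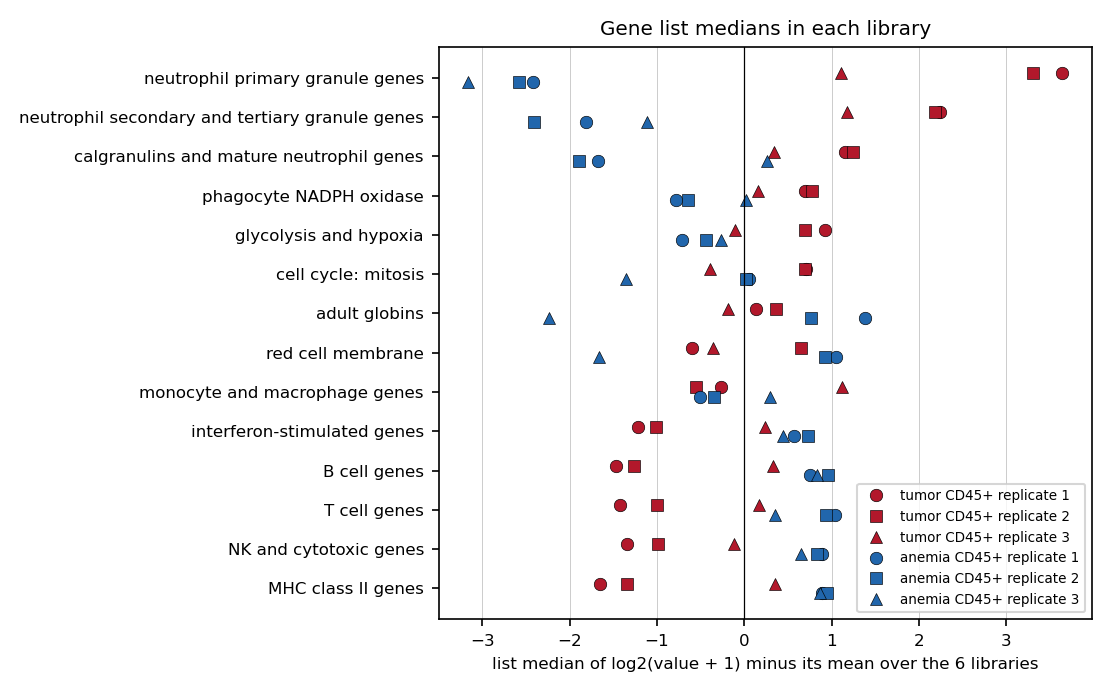
Median over each list's tested members of log2(value + 1) minus the gene's mean over the 6 libraries (x axis), for each tumor (red) and anemia (blue) library. Tumor replicates 1 and 2 lie at the edges of the neutrophil and lymphocyte lists, tumor replicate 3 (triangle) lies nearer the middle, and anemia replicate 3 (triangle) is lowest for globins (-2.24) and red cell membrane genes (-1.67).

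The series' design text calls these cells suppressive. Genes of immune suppression went both ways, 3 of 27 higher in tumor and 3 higher in anemia (median -0.02), against 5.82% and 4.91% of all genes. The counts were 5 and 6 without tumor replicate 3, 3 and 1 without tumor replicate 1, 3 and 1 without tumor replicate 2, 2 and 2 without anemia replicate 2, and 5 and 3 without anemia replicate 3. Arg1, arginase of suppressive myeloid cells, was near 0 in both groups, at 0.140, 0.0436 and 0.103 in the tumor libraries and 0.0962, 0.131 and 0.0940 in the anemia libraries. Ceacam1, an inhibitory adhesion protein, was 37.6, 42.04 and 33.998 in the tumor libraries and 10.7, 7.74 and 23.3 in the anemia libraries (1.51 ± 0.29 log2 units, SE, limma adjusted p = 0.0024). Lgals3, a galectin, was 163, 182 and 89.5 in the tumor libraries and 22.5, 25.4 and 93.4 in the anemia libraries (log2 fold change 1.85, limma adjusted p = 0.0072). Ptges, a prostaglandin E synthase at low values, passed with 1.05. Anemia replicate 3 overlapped the tumor group for Lgals3. Higher in anemia was Nt5e, the ectonucleotidase CD73 (-0.98). The other two called there, Tigit, a checkpoint receptor of T and NK cells, and Pdcd1lg2, the ligand PD-L2, reached the filter on low values only with the anemia CD45+ libraries. Cd274, the ligand PD-L1, was 5.08, 7.33 and 24.6 in the tumor libraries and 19.6, 21.3 and 73.2 in the anemia libraries (log2 fold change -1.57, limma adjusted p = 0.051). Il10 was 0.793, 1.31 and 1.20 in the tumor libraries and 1.82, 1.87 and 6.69 in the anemia libraries (log2 fold change -0.93, limma adjusted p = 0.057). Tgfb1 was 35.96, 28.9 and 33.2 in the tumor libraries and 27.7, 30.98 and 41.7 in the anemia libraries (log2 fold change -0.02, limma adjusted p = 0.99). None of these last 3 passed, and anemia replicate 3 was the highest of the 6 in each. Slc7a11, a cystine transporter, was 10.7, 9.02 and 3.9998 in the tumor libraries and 1.64, 0.932 and 125 in the anemia libraries, with anemia replicate 3 alone high (log2 fold change -0.04, limma adjusted p = 0.99). In the 6-library fit 0 and 0 members were called. The call of Lgals3 was lost without anemia replicate 2 (limma adjusted p = 0.0501). The call of Nt5e was lost without tumor replicate 1 or 2 or anemia replicate 2 (limma adjusted p up to 0.096).

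Inflammatory cytokine and chemokine genes gave 1 call in tumor and 3 in anemia of 23 tested (median -0.40), against 5.82% and 4.91% of all genes. Ccl9, a chemokine of myeloid cells, was 5.87, 7.04 and 13.96 in the tumor libraries and 0.715, 2.87 and 3.08 in the anemia libraries (log2 fold change 1.64, limma adjusted p = 0.02). The lymphotoxins Ltb and Lta were higher in anemia by the test (-1.44 and -1.09), as was Cxcl16 (-1.19). Il1b was 14.2, 61.9 and 50.8 in the tumor libraries and 20.7, 15.7 and 314 in the anemia libraries. Cxcl2, a neutrophil attractant, was 29.6, 120.4 and 31.2 in the tumor libraries and 6.09, 10.1 and 268 in the anemia libraries, both with anemia replicate 3 highest of the 6 and neither past the threshold (log2 fold change -0.40, limma adjusted p = 0.83 and log2 fold change 0.83, limma adjusted p = 0.69). Of 37 genes of NF-kB and the immediate early response, 8 were higher in anemia and 0 higher in tumor (median -0.65). Nr4a2 was 1.70, 2.98 and 5.59 in the tumor libraries and 13.2, 11.96 and 12.7 in the anemia libraries, without overlap (-1.72 ± 0.34 log2 units, SE, limma adjusted p = 0.0032), Egr3 differed by -0.99 and Nfkbie, an inhibitor of NF-kB, by -1.36. Fos, an AP-1 chain, was 34.5, 87.8 and 89.2 in the tumor libraries and 37.99, 37.2 and 68.03 in the anemia libraries and did not pass (log2 fold change 0.49, limma adjusted p = 0.52). The count was 2 without tumor replicate 1, 3 without tumor replicate 2, 5 without anemia replicate 1 and 4 without anemia replicate 3, and 0 in the 6-library fit. The call of Ccl9 was lost without tumor replicate 2 or 3 or anemia replicate 1 (limma adjusted p up to 0.13). The calls of Ltb and Lta were lost without tumor replicate 1 or anemia replicate 2 (limma adjusted p up to 0.16). The call of Cxcl16 was lost without tumor replicate 2 (limma adjusted p = 0.076). The call of Nfkbie was lost without tumor replicate 1 (limma adjusted p = 0.063).

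Of the erythroid lists, that of haem and iron genes alone had a member past the threshold. Among 4 adult globin genes, 24 red cell membrane genes, 29 genes of erythroid transcription and terminal maturation and 19 genes of erythropoietin signalling, 0 passed in limma, against 10.7% of all genes, with medians of 0.04, -0.17, -0.34 and -0.16. Hbb-bs, an adult beta globin, was 4041, 4538 and 3616 in the tumor libraries and 7968, 5124 and 807 in the anemia libraries (log2 fold change 0.34, limma adjusted p = 0.84). Anemia replicates 1 and 2 were above the tumor libraries and anemia replicate 3 far below them. Slc4a1, the anion exchanger of the red cell membrane, was 204, 481 and 169 in the tumor libraries and 619, 467 and 35.01 in the anemia libraries (log2 fold change 0.23, limma adjusted p = 0.92). Gata1, the erythroid master factor, was 2.21, 13.99 and 5.14 in the tumor libraries and 12.3, 10.5 and 4.26 in the anemia libraries (log2 fold change -0.48, limma adjusted p = 0.62). Klf1, an erythroid Krüppel-like factor, was 5.12, 11.3 and 6.49 in the tumor libraries and 19.8, 21.7 and 5.99 in the anemia libraries (log2 fold change -0.85, limma adjusted p = 0.19). Epor, the erythropoietin receptor, was 3.71, 8.82 and 3.32 in the tumor libraries and 12.96, 11.7 and 1.68 in the anemia libraries (log2 fold change -0.42, limma adjusted p = 0.71). In all of these anemia replicate 3 was the lowest of its group. Of 23 genes of haem synthesis and iron handling, 1 was higher in anemia, the iron transporter Slc11a2 (log2 fold change -0.93, limma adjusted p = 0.039). Alas2, which starts haem synthesis in red cells, was 189.6, 259 and 292 in the tumor libraries and 419, 292 and 58.6 in the anemia libraries (log2 fold change 0.33, limma adjusted p = 0.80). Without anemia replicate 3 the counts were 0 for globins, 5 for membrane genes, 6 for transcription and maturation and 3 for haem and iron genes higher in anemia. A missed threshold here does not show equal levels, since the globin share alone ranged from 1.29 to 14.9% over the anemia libraries. The call of Slc11a2 was lost without tumor replicate 1 or 2 or anemia replicate 1 or 2 (limma adjusted p up to 0.22).

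Few cell division genes passed with all libraries, and more did without tumor replicate 3. Of 25 mitosis genes 2 passed, both higher in tumor, near the 5.82% of all genes. Plk1, a mitotic kinase, was 28.9, 33.7 and 14.3 in the tumor libraries and 10.7, 10.8 and 5.83 in the anemia libraries (log2 fold change 1.36, limma adjusted p = 0.01). Kif20a, a kinesin of cytokinesis, was 31.6, 28.9 and 10.1 in the tumor libraries and 10.2, 12.4 and 4.65 in the anemia libraries (log2 fold change 1.23, limma adjusted p = 0.03). Without tumor replicate 3, 14 of the mitosis genes were higher in tumor, and of 26 DNA replication genes 11 were, against 0 with all libraries. The share of all genes higher in tumor also rose in that fit, from 5.82% to 9.21%. Mki67, a marker of cycling cells, was 241, 273 and 105 in the tumor libraries and 247, 215 and 54.95 in the anemia libraries (log2 fold change 0.41, limma adjusted p = 0.68). The replicate 3 library was the lowest of its group for it in both states. Of 19 genes of the integrated stress response 2 passed, both higher in tumor, against 5.82% of all genes. They were Asns, asparagine synthetase, and Atf5 (1.80 and 1.66). The count was 3 without tumor replicate 3 and 0 without any other of the 6 libraries. The call of Plk1 was lost without tumor replicate 1 or 2 (limma adjusted p up to 0.074). The call of Kif20a was lost without tumor replicate 1 or 2 or anemia replicate 1 or 3 (limma adjusted p up to 0.20). The calls of Asns and Atf5 were lost without tumor replicate 1 or 2 or anemia replicate 1, 2 or 3 (limma adjusted p up to 0.20).

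Macrophage genes marked tumor replicate 3. Vcam1, an adhesion molecule of splenic macrophages and stroma, was 84.8, 57.3 and 599 in the tumor libraries and 40.2, 52.95 and 28.2 in the anemia libraries. Adgre1, which encodes F4/80, was 4.99, 4.69 and 48.1 in the tumor libraries and 11.9, 13.7 and 31.3 in the anemia libraries. Tumor replicate 3 was the highest of the 6 for both, and neither passed (log2 fold change 1.84, limma adjusted p = 0.13 and log2 fold change -0.63, limma adjusted p = 0.62). Of 27 monocyte and macrophage genes 4 passed, all higher in tumor, against 5.82% of all genes (median 0.31). Cd163, the haemoglobin scavenger receptor, was 5.59, 4.02 and 57.4 in the tumor libraries and 1.30, 0.557 and 0.0913 in the anemia libraries (log2 fold change 2.98, limma adjusted p = 0.01). Fcgr3, an activating Fc receptor of myeloid cells, was 48.6, 53.3 and 47.5 in the tumor libraries and 12.9, 8.45 and 19.9 in the anemia libraries, without overlap (1.86 ± 0.37 log2 units, SE, limma adjusted p = 0.003), and Ly6c1 and Ly6c2, near-identical copies, passed with 1.07 and 1.84. The list made up 0.185, 0.193 and 0.735% of the summed values in the tumor libraries and 0.137, 0.161 and 0.279% in the anemia libraries. Its part in the values of tumor replicate 3 was not tested.

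Basophil and mast cell genes were low in value. Of 18 mast cell, basophil and eosinophil genes 5 were higher in tumor and 1 in anemia (median 0.45), against 5.82% and 4.91% of all genes. The tumor count was 3 without tumor replicate 1, 2 without tumor replicate 2, 3 without anemia replicate 2 and 0 in the 6-library fit. Mcpt8, a basophil protease, was 8.20, 6.39 and 4.28 in the tumor libraries and 1.37, 1.28 and 0.777 in the anemia libraries (1.74 ± 0.26 log2 units, SE, limma adjusted p = 4.2e-04). Prss34, another, was 2.98, 6.23 and 9.17 in the tumor libraries and 1.58, 1.80 and 0.958 in the anemia libraries (log2 fold change 1.46, limma adjusted p = 0.012). The groups were apart for both. Il5ra, the IL-5 receptor chain of eosinophils and of some B cells, was 0.465, 1.08 and 4.35 in the tumor libraries and 5.44, 4.72 and 7.31 in the anemia libraries, higher in anemia (log2 fold change -1.41, limma adjusted p = 0.021). The call of Prss34 was lost without tumor replicate 2 (limma adjusted p = 0.056). The call of Il5ra was lost without tumor replicate 1 or 2 or anemia replicate 1 or 3 (limma adjusted p up to 0.16).

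Other lists gave few calls, to be read against the 5.82% of all genes higher in tumor and 4.91% higher in anemia. Of 22 adhesion and chemokine receptor genes, 2 were higher in tumor (Itgam and Cxcr2) and 4 higher in anemia, Ccr6 (-1.83), Itgb7 (-1.72), S1pr1 (-1.62) and Itgax, and those in anemia numbered 0 without tumor replicate 1 or 2. Of 24 pattern recognition and Fc receptor genes, 1 passed, Fcgr3, and 7 did without anemia replicate 3. Of 42 cytosolic ribosomal protein genes 0 passed (median -0.11). Hepatocyte genes gave 0 calls of 8, and 7 of these were listed at 0 in at least 1 of the 6 libraries. Although the tissue label is spleen, the labels' text on RNA extraction mentions retinas, and of 10 retina genes 1 could be tested and did not pass. The calls of Ccr6 and S1pr1 were lost without tumor replicate 1 or 2 (limma adjusted p up to 0.092). The call of Itgb7 was lost without tumor replicate 1 or 2 or anemia replicate 2 (limma adjusted p up to 0.087).

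In the CD45- cells of the same sort few genes passed between the states, which does not show equal levels, since leukocyte genes there were low. In them 17 genes passed (0.152% of those tested), 13 higher in tumor and 4 higher in anemia, with 854 at an unadjusted p under 0.05. The difference between tumor and anemia was larger or smaller in CD45+ than in CD45- cells for 246 genes (2.2% of those tested) by the test of that difference, and for 61 with a pseudocount of 0.1. Mpo in CD45- cells was 8.59, 4.79 and 0.260 in tumor and 0.152, 0.0622 and 0.0797 in anemia. Ms4a3 there was 1.64, 1.13 and 0.0597 in tumor and 0, 0 and 0.0149 in anemia. At levels this near 0 the added 1 compresses a difference, and the genes named here were picked for their CD45+ difference, which enters this contrast. Its value for them is therefore a description, 3.79 for Mpo and 4.71 for Ms4a3 with a pseudocount of 1, and 2.17 and 3.64 with 0.1. Calgranulin and mature neutrophil genes made up 0.0991, 0.0966 and 0.0134% of the summed CD45- values in tumor and 0.0054, 0.0082 and 0.0064% in anemia. S100a8 in CD45- cells was 139, 70.2 and 11.95 in tumor and 3.72, 2.52 and 3.05 in anemia (log2 fold change 3.63, limma adjusted p = 0.059). In MDSC it was 15127, 17354 and 23107, above all tumor CD45+ libraries, while Mpo in MDSC was 783, 626 and 445, inside their range. The count of 246 was 1184 without tumor replicate 3, 432 without anemia replicate 3, and 84 to 172 without any other tumor or anemia library but tumor CD45- replicate 3 (214).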

How the data were processed

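RNA of sorted spleen cells was measured in 21 libraries, 3 per group, and the groups were taken from the labels. The authors deposited 1 table of log2 values per gene and library. Its scale and quantification are not given in the sources used here. Bowtie 0.12.2 and the mm8 build are listed, per the submitters' processing notes. The table holds 14273 genes, and 7.90% of its cells are blank. Blanks were set to 0 after the logarithm was undone. Kept genes reached 1 in 3 or more of the 18 Ter119+CD71+ libraries. Log2(value + 1) was fitted with limma 3.58.1 in R 4.3.3, with a mean per group and the trend and robust options, and the contrast was tumor minus anemia CD45+ cells. Benjamini-Hochberg adjusted p-values below 0.05 over all tested genes were called.

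The genes named are the 12 with the largest called difference in each direction whose groups did not overlap and whose higher mean was at least 10, up to 5 members of each gene list by adjusted p and direction, and other list members with a known role. Symbols with only a clone or locus number, symbols turned into dates and repeat entries of a symbol were left out before the 12 were ranked. The members and lists were chosen with earlier results of these data known, and lists are described by counts and medians. Replicates share numbers across groups, but the labels do not say that a number marks a shared mouse or day. Read depth is not given, so precision rests on the 3 libraries per group. Neonatal libraries entered the fit only for its spread. Promoter sequences came from RefSeq tables of GRCm38.p6. Alternatives covered the libraries fitted, scaling, pseudocount, filters, blank cells, fit options, a replicate block and each library left out.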

Additional observations from a re-analysis of the deposited data

Results flagged for a closer look

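Among the genes named for the largest tumor against anemia difference in CD45+ cells, 8 had a difference that limma's test separated from that in CD45- cells (n = 3 libraries per group). Since the genes were picked for their CD45+ difference, which is part of this contrast, the values are a description. On the log2(value + 1) scale, the CD45+ difference minus the CD45- difference was 4.38 for Ctsg (adjusted p = 0.019), 3.79 for Mpo (adjusted p = 0.034), 4.71 for Ms4a3 (adjusted p = 0.0021), 3.90 for Prtn3 (adjusted p = 0.036), 3.98 for Elane (adjusted p = 0.027), 3.78 for Cd177 (adjusted p = 0.0042), 4.38 for Olfm4 (adjusted p = 4.1e-04) and -3.51 for Gzma (adjusted p = 0.0035). In CD45- cells alone the difference was 1.48 for Ctsg, 1.91 for Mpo, 0.85 for Ms4a3, 1.495 for Prtn3, 1.34 for Elane, 1.04 for Cd177, 0.23 for Olfm4 and -0.14 for Gzma. At CD45- values near 0 the added 1 compresses a difference. With a pseudocount of 0.1 the values were 2.65 for Ctsg, 2.17 for Mpo, 3.64 for Ms4a3, 2.97 for Prtn3, 2.52 for Elane, 2.29 for Cd177, 4.50 for Olfm4 and -3.80 for Gzma, and of the 8 Olfm4 alone passed (adjusted p = 0.032). With a pseudocount of 1 and each of the 12 tumor and anemia libraries left out in turn, Ms4a3, Cd177, Olfm4 and Gzma passed every time. Of these 12 fits, the number passed was 8 for Ctsg (adjusted p up to 0.062), 2 for Mpo (adjusted p up to 0.11), 3 for Prtn3 (adjusted p up to 0.12) and 3 for Elane (adjusted p up to 0.095). Ctsg, Mpo, Prtn3 and Elane encode primary granule proteins, Ms4a3, Cd177 and Olfm4 mark granulocytes and their progenitors, and Gzma encodes granzyme A of cytotoxic lymphocytes.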

How the results depend on the processing

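The counts higher in tumor and in anemia depended on the libraries that gave the spread. They were 70 and 5 with the 6 compared libraries, 331 and 74 with the 9 CD45+ libraries (an alternative chosen after seeing the data), and 2109 and 2504 with library weights, whose estimation stopped before it converged. Leaving out 1 library gave 382 to 1024 and 164 to 1203, and leaving out both replicates 3 gave 949 and 1017. The count in anemia was 237 with a pseudocount of 0.1 and 303 with a filter at 5. The count of genes whose difference was not the same in CD45+ and CD45- cells was 246, 114 with the 12 tumor and anemia libraries, 61 and 417 with pseudocounts of 0.1 and 5, 162 with a filter at 5, 4214 with library weights and 84 to 1184 with 1 library left out. Median-ratio scaling gave 614 and 562, quantile normalization 732 and 721, and a fit without haemoglobin genes 553 and 787. Same-numbered libraries correlated in their deviations at 0.049, 0.137 and 0.197, below 0.1 in 1 case, so the numbers were not taken to pair them. Replicate 3 of either state correlated at -0.2085 to -0.0755 with replicates 1 and 2 of the other. Replicates 1 and 2 correlated across states at 0.159 and 0.0586. The deviations are from group means, so these values are not independent. Replicate 3 thus departed from replicates 1 and 2 partly alike in both states. A replicate block gave 758 and 711 calls and 287 for the difference between gates, and its calls held 646 of the 651 and 545 of the 550 genes. Over 172 genes followed in 20 settings, the direction was kept in 3346 of 3396 combinations of gene and setting. Many of these genes were picked for their difference in these same libraries, which every setting reuses in whole or in part. The kept directions are therefore a description and no independent support. None of the genes whose direction turned had passed the threshold with all libraries. With library weights the sign turned for Alas2 (-0.37), Hbb-bs (-0.37), Il1b (0.89), Jchain (-1.07), Ltb4r1 (-0.065), Slc4a1 (-0.26), Slc7a11 (1.69), Tfrc (0.076) and Tgfb1 (0.037). With haemoglobin genes left out the sign turned for Ltb4r1 (-0.029) and Slc2a1 (-0.12). With a pseudocount of 5 the sign turned for Ltb4r1 (-0.0010). With a pseudocount of 0.1 the sign turned for Slc7a11 (0.28). With 1 library or both replicates 3 left out, the sign also turned for Alas2 (-0.66 to 0.88), Arg1 (-0.045 to 0.018), Clec4d (-0.20 to 2.19), Cxcl2 (-0.15 to 2.78), Epor (-1.19 to 0.00064), Gata1 (-1.07 to 0.044), Hbb-bs (-0.66 to 0.99), Il1b (-1.17 to 0.94) and Isg15 (-2.24 to 0.95). The same was seen for Jchain (-1.35 to 1.25), Ltb4r1 (-0.33 to 0.50), Mki67 (-0.27 to 0.84), Nkg7 (-0.77 to 0.025), Slc2a1 (-0.24 to 0.23), Slc4a1 (-1.07 to 0.98), Slc7a11 (-1.12 to 2.26), Tfrc (-0.39 to 0.24) and Tgfb1 (-0.14 to 0.15). The cause of these shifts was not tested. Depth, and so the smallest difference that could be seen, is unknown, and 3 libraries per group limit the precision.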
